A study of Mus musculus with 19 samples.

Results

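The immunoproteasome and MHC class I genes described here are 9 genes of the machinery that cuts proteins into peptides and shows them on the cell surface: Psmb8, Psmb9, Psmb10, Tap1, Tap2, Tapbp, B2m, Nlrc5, and Irf1. They were matched by symbol to the Ensembl gene identifiers of the RSEM tables (mouse genome build GRCm38). All 9 of the 9 were found among 55487 listed genes, and all 9 were among the 17875 genes with enough counts to be tested.

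RNA was sequenced from crypts, the epithelial pits of the small intestine, of 19 C57BL/6 mice, with 1 library per mouse. The authors describe the fed and fasted mice of both genotypes as carrying Lgr5-EGFP, a fluorescent reporter at the stem cell gene Lgr5. Mice carried either both copies of the gene for neurotensin (NT+/+), a gut hormone released after a meal, or none (NT-/-), and were fed ad libitum (AL) or fasted for 48 hours with water only (Fast). There were 5 NT+/+ AL, 5 NT+/+ Fast, 4 NT-/- AL, and 5 NT-/- Fast mice, males and females of 10 to 16 weeks, and controls were littermates matched for sex and age. The fasting comparisons ask what nutrient deprivation does to crypts with and without neurotensin, and the genotype comparisons ask what loss of the hormone does at each diet. NT-/- mice lack neurotensin in every tissue, so the model does not separate the gut from other sources. The authors took crypts from the proximal part of the small intestine, so the results do not cover its distal end. Crypts were freed with EDTA and filtered but not sorted, and markers of other cell types were therefore measured too.

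Proteasomes are barrel-shaped proteases that degrade cytosolic proteins. In the immunoproteasome the catalytic subunits Psmb5, Psmb6, and Psmb7 are replaced by Psmb8, Psmb9, and Psmb10, which shifts cleavage toward peptides that fit MHC class I. The TAP transporter, built from Tap1 and Tap2, pumps these peptides into the endoplasmic reticulum, where Tapbp (tapasin) bridges it to a class I heavy chain paired with the light chain B2m. Interferon gamma raises the whole set in part through the transcription factor Irf1, and Nlrc5 is the class I transactivator that works through the RFX, NF-Y, and CREB factors on class I promoters. In the gut epithelium these genes are active at a basal level and are known to respond to cytokines from intraepithelial lymphocytes.

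In the GENCODE annotation of GRCm38, 5 of the 9 genes lie in the MHC region of chromosome 17. Tapbp spans 33915899 to 33929292, and at a distance of 252695 bases a cluster of 34335 bases holds Psmb9 (34181987-34187764, minus strand), Tap1 (34187553-34197225, plus strand), Psmb8 (34197721-34201454, plus strand), and Tap2 (34203527-34216321, plus strand). B2m is on chromosome 2 (122147686-122153083), Psmb10 and Nlrc5 are on chromosome 8 (105935735-105938444 and 94434356-94527272), and Irf1 is on chromosome 11 (53770014-53778374). Psmb9 and Tap1 are transcribed away from each other from starts that RefSeq places 226 bases apart, and 212 exonic bases of the annotation belong to both genes on opposite strands. Reads from these bases could not be assigned to either gene for certain, because the strand setting of the counting was not given in the sources used here. Antisense or neighbouring transcripts also share exonic bases with Psmb8 (498), Tap2 (533 with one and 165 with another), Tapbp (904 and 149), Nlrc5 (78), and Irf1 (135).

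RefSeq promoter windows of 300 bases (250 before and 50 after a transcription start, GRCm38.p6) were found for 7 of the 9 genes, and not for Tap2 or Nlrc5. On both strands 5 motifs were searched: the interferon-stimulated response element, the gamma-activated sequence TTCNNNGAA, the Y box ATTGG bound by NF-Y, the X2 box core TGACG bound by CREB, and the NF-kappaB site. They were present in 3.43%, 8.29%, 37.4%, 20.8%, and 0.155% of 32817 promoter windows, respectively. The windows below are those of the pair that shares a promoter, of a subunit in the same cluster, of the light chain, and of the interferon-regulated factor. Capitals mark motif matches.
Tap1 (chr17:34187306-34187605, plus strand): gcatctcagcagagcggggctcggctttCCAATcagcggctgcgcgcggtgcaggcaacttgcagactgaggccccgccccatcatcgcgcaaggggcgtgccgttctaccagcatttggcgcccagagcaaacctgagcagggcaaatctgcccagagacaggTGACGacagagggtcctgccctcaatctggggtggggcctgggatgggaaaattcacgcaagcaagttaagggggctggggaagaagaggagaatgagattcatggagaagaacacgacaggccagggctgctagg
Psmb8 (chr17:34197945-34198244, plus strand): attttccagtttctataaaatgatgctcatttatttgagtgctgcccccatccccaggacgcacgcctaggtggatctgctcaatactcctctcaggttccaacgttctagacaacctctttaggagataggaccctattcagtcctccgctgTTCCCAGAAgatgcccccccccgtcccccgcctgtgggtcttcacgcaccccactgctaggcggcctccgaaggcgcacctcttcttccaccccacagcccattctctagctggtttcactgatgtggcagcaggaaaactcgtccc
B2m (chr2:122147437-122147736, plus strand): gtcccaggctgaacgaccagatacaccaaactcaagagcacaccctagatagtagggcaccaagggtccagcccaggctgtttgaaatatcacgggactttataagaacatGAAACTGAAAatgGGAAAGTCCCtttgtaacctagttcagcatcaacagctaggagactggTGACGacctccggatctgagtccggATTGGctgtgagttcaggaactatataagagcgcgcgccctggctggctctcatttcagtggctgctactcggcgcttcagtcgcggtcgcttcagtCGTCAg
Irf1 (chr11:53769764-53770063, plus strand): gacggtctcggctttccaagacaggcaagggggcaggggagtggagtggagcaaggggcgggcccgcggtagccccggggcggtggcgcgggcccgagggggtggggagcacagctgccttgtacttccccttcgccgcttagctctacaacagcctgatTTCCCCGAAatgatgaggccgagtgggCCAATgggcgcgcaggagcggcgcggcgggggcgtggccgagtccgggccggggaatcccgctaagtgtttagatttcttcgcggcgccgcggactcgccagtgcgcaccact

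The Tap1 window shares 275 of its 300 bases with the Psmb9 window (chr17:34187281-34187580, minus strand), read in the opposite direction. It holds a Y box and an X2 core and no match to the interferon motifs as spelled here. Psmb8 and Irf1 each hold a gamma-activated sequence, at 97 to 89 and 90 to 82 bases before the RefSeq start, and Irf1 also has a Y box. A second RefSeq window of Irf1 (chr11:53770223-53770522, not printed) has no match to the 5 motifs. B2m carries the interferon-stimulated response element next to the NF-kappaB site, with an X2 core and a Y box nearer to the start and a second X2 core after it. The Tapbp window has 2 Y boxes, and the Psmb10 window has no match to the 5 motifs. The Psmb8 window begins at 34197945, after the GENCODE gene start at 34197721, so its motif lies inside the annotated gene. The Tapbp window (33919228-33919527) also lies inside its annotated gene. These are matches of letters, not measured binding.

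The total of the rounded counts per mouse ranged from 9059418 to 35068669. Of the 9 genes, Nlrc5 had the fewest counts, 128 to 556 per mouse, and B2m the most, 3710 to 15182. Nts, which encodes neurotensin, was at 4.98 to 8.59 CPM (library-scaled counts) in NT+/+ mice and at 0.145 to 0.793 CPM in NT-/- mice. Replicate 5 of the NT+/+ Fast group is NT+/+ by title and NT-/- by genotype label, and it was kept by its title, with Nts at 5.43 CPM. Epithelial markers (Epcam, Cdh1, Krt8, and Vil1) summed to 4527 to 6016 CPM over all mice and crypt markers to 4291 to 13650 CPM. CPM values use library sizes scaled by the TMM method, and log2 fold changes, standard errors (SE), and adjusted p values come from the quasi-likelihood test of edgeR, with Benjamini-Hochberg adjusted values over all genes tested.

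On the length-corrected scale (TPM), B2m had the highest level of the 9 genes in NT+/+ AL crypts, 590 ± 62.1 TPM (SD, n = 5). Psmb10 followed at 155 ± 8.74, Irf1 at 98.3 ± 7.80, Psmb8 at 76.6 ± 10.4, and Tapbp at 76.1 ± 4.71 TPM, of which the last 2 did not differ beyond their spread. Psmb9 was at 46.4 ± 6.73, Tap1 at 29.6 ± 5.10, Tap2 at 11.4 ± 2.20, and Nlrc5 at 5.74 ± 1.39 TPM. The light chain was thus the most abundant transcript of the set and the transactivator the least. After fasting, Psmb9 and Tap1 were neighbours that did not differ beyond their spread, at 31.1 ± 6.08 and 29.7 ± 6.11 TPM in NT+/+ and 29.4 ± 7.18 and 32.5 ± 3.53 TPM in NT-/- mice (SD, n = 5 each).

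Fasting lowered 2 immunoproteasome subunits and Irf1 in NT+/+ crypts, while neither TAP gene was called lower. In NT+/+ mice, 3 of the 9 genes passed the adjusted threshold, all lower after the fast (Psmb9, Psmb10, and Irf1), where 21.6% of all genes tested were called, 10.4% lower and 11.2% higher. Of the same 9 genes, 2 passed in NT-/- mice, Psmb10 lower and Tap2 higher, where 25.2% of all genes were called, 12.6% lower and 12.5% higher. At an unadjusted p under 0.05 were 5 of the 9 in NT+/+ and 4 in NT-/- mice, against 34.1% and 36.5% of all genes. The median log2 change of the 9 genes was -0.29 in NT+/+ and 0.08 in NT-/- mice, beside -0.01 and -0.02 over all genes tested. In bulk crypt RNA, fewer cells of a type and less RNA per cell cannot be told apart.

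**Figure D1:**
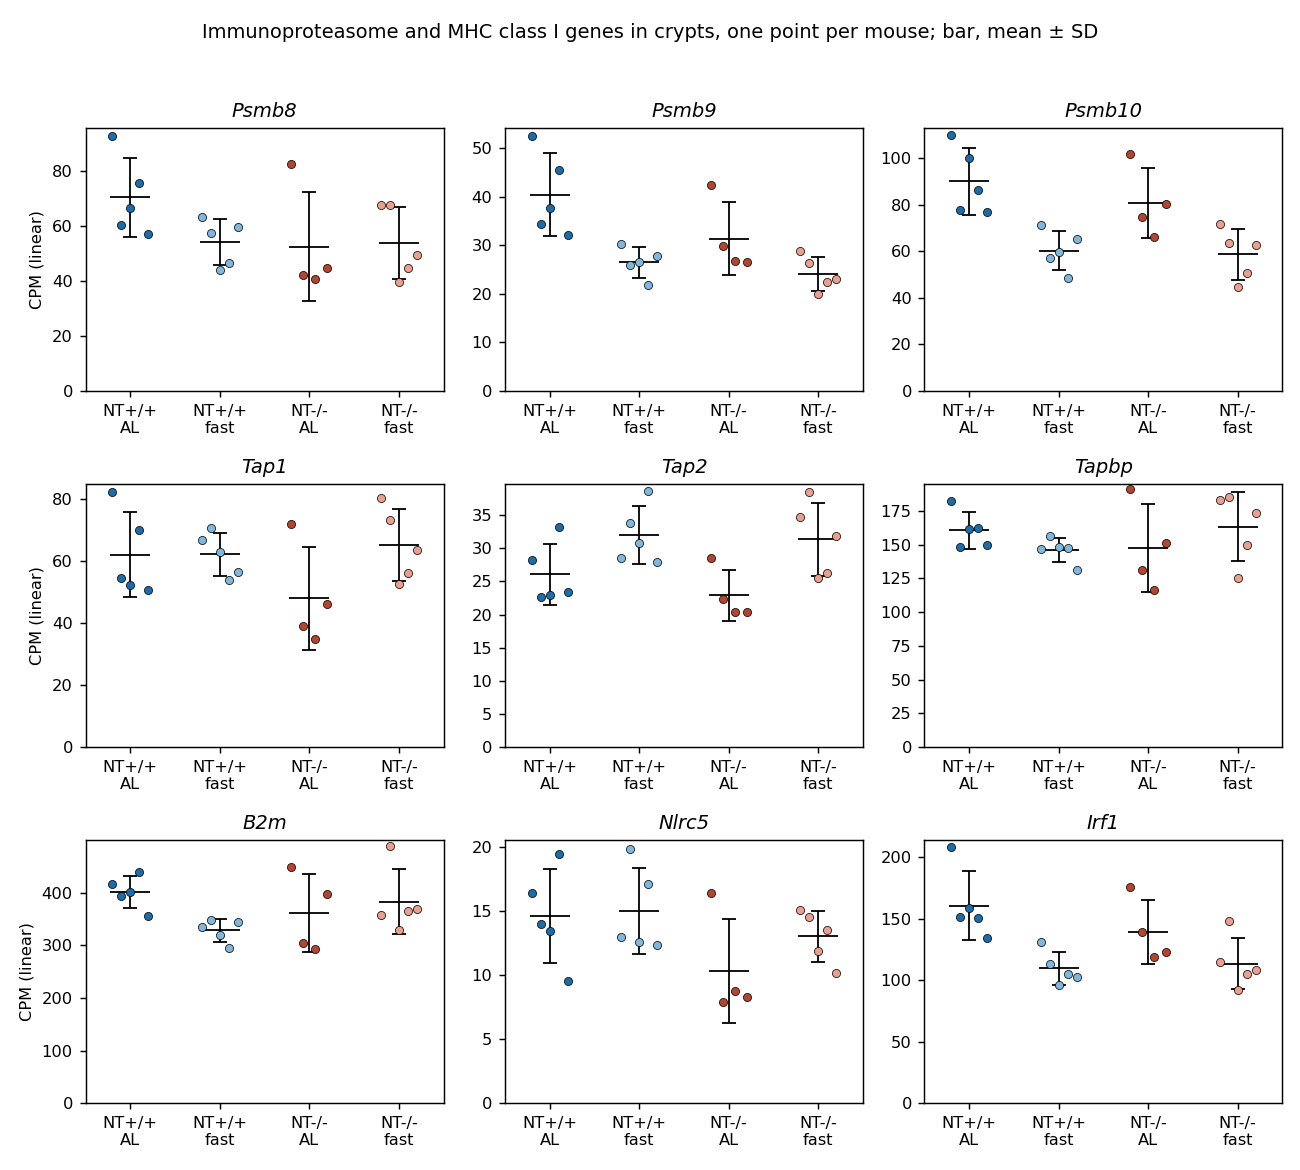
Level of each of the 9 genes in CPM (linear axis from 0) by genotype and diet. Each point is a mouse and bars are mean ± SD; Psmb9, Psmb10, B2m, and Irf1 of the 5 NT+/+ Fast mice lie below all 5 NT+/+ AL mice, and replicate 1 of the NT-/- AL group is the highest of its group for all 9 genes.

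Psmb9, the subunit that takes the place of Psmb6, was at 52.5, 34.3, 37.7, 45.6, and 32.0 CPM in the 5 NT+/+ AL mice and at 30.3, 25.99, 26.5, 21.8, and 27.7 CPM in the 5 NT+/+ Fast mice. The fasted mice were all below the lowest fed mouse. Psmb9 fell by 0.61 on the log2 scale (SE, 0.149; adjusted p = 0.0059), a change of -34.6%. NT-/- mice were at 42.5, 29.8, 26.8, and 26.5 CPM when fed and at 28.8, 26.4, 20.0, 22.5, and 22.98 CPM after the fast. Of the fasted mice, 4 of 5 were below every fed mouse, and replicate 1 was not. The log2 change was -0.38 (SE, 0.158; adjusted p = 0.0838), and it passed with the replicate number as a block (adjusted p = 0.0321 with the numbers of the titles and 0.0315 with those of the file names) or without NT-/- Fast replicate 1 (adjusted p = 0.049).

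Psmb10, which takes the place of Psmb7, was at 110, 77.8, 100, 86.4, and 76.9 CPM in NT+/+ AL mice and at 71.4, 57.1, 59.6, 48.7, and 65.2 CPM in NT+/+ Fast mice. These groups did not overlap either. Psmb10 fell by 0.58 (SE, 0.14; adjusted p = 0.00591), or by 33.0%. The NT-/- levels were 102, 74.8, 66.4, and 80.3 CPM when fed and 71.7, 63.7, 44.6, 50.7, and 62.9 CPM after fasting, with 1 fasted mouse above the lowest fed one. Psmb10 fell by 0.46 (SE, 0.148; adjusted p = 0.0276) in this genotype. This call was lost without NT-/- AL replicate 1 (adjusted p = 0.131) or 4 (0.0501) and without NT-/- Fast replicate 3 (0.0757) or 4 (0.0642).

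Psmb8, which takes the place of Psmb5, was at 92.7, 60.3, 66.5, 75.8, and 57.1 CPM in NT+/+ AL mice and at 63.3, 57.3, 44.2, 46.7, and 59.7 CPM in NT+/+ Fast mice, and the ranges overlapped. The log2 change of -0.38 (SE, 0.195) had an adjusted p of 0.18, which became 0.0426 with the block of the title numbers and 0.0432 with that of the file names. In NT-/- AL mice 1 library stood apart, replicate 1 at 82.4 CPM, and the others were at 42.2, 40.8, and 44.8 CPM. NT-/- Fast mice were at 67.8, 67.5, 39.5, 44.6, and 49.7 CPM, all within the fed range except replicate 3. The log2 change was 0.03 (SE, 0.208; adjusted p = 0.947), and 0.34 without fed replicate 1 (adjusted p = 0.21).

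**Figure D2:**
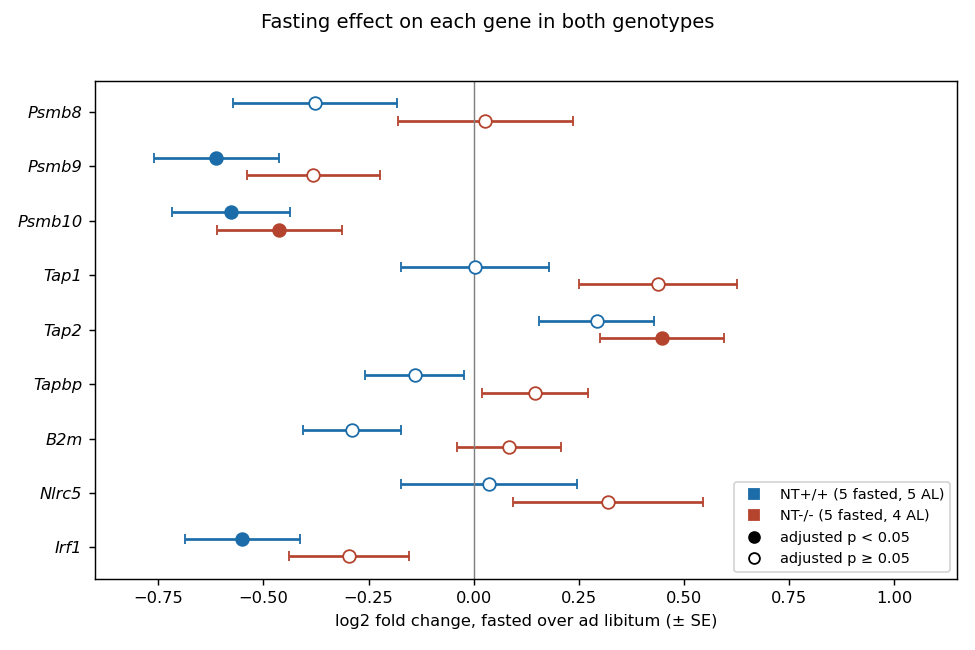
Log2 fold change of each gene, fasted over ad libitum, with SE, in NT+/+ (blue) and NT-/- (red) mice; filled points have an adjusted p under 0.05. Psmb9, Psmb10, and Irf1 are lowest in NT+/+ mice, from -0.55 to -0.61, and Tap2 is the gene called higher, at 0.45 in NT-/- mice.

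The constitutive subunits were compared in the same way. None of Psmb5, Psmb6, and Psmb7 was called in either genotype by edgeR or DESeq2 (1 and 0 of the 3 at an unadjusted p under 0.05): their log2 changes were -0.23, 0.02, and -0.21 in NT+/+ mice (adjusted p = 0.235, 0.866, and 0.0862) and -0.26, 0.00, and -0.16 in NT-/- mice (adjusted p = 0.188, 0.984, and 0.208). Psmb7 was called lower in NT+/+ mice under 4 of 19 alternatives, which were either block (adjusted p = 0.0263 and 0.016), upper quartile scaling (0.0472), and leaving out NT+/+ Fast replicate 1 (0.038). Psmb5 was called lower in NT-/- mice with the block of the title numbers (adjusted p = 0.0447). The sign of the Psmb6 change turned when single mice were left out.

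A ratio of each immunosubunit to the subunit it replaces needs no library size. In NT+/+ mice the Psmb10/Psmb7 ratio in TPM was 2.02, 1.89, 2.21, 1.95, and 1.78 when fed and 1.52, 1.53, 1.42, 1.43, and 1.55 after fasting. The groups were separate, with means of 1.97 ± 0.161 and 1.49 ± 0.0598 (SD, n = 5 each) and a two-sided exact permutation p of 0.00794, the smallest that 5 against 5 mice allow. The Psmb9/Psmb6 ratio went from 0.448 ± 0.0715 to 0.308 ± 0.0618, overlapping by 1 mouse (exact permutation p = 0.0159). Psmb8/Psmb5 was 1.24 ± 0.21 and 1.11 ± 0.176 (exact permutation p = 0.333).

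Adjusted over the 12 tests of the 3 ratios in 4 comparisons, the first 2 of these ratios had a p of 0.0952 by the exact permutation test, and none of the 12 passed. CPM over effective length gives the same ratio as TPM except for rounding, so it is not a second measure. The log2 differences were -0.5513 against -0.5511 in TPM for Psmb9/Psmb6, and -0.4002 in both for Psmb10/Psmb7. In TPM the Psmb9/Psmb6 groups overlapped by 0.3653 (NT+/+ Fast replicate 1) against 0.3649 (NT+/+ AL replicate 3). Rounding removed this overlap, and both ratios then reached an adjusted permutation p of 0.0476, Psmb10/Psmb7 only through the adjustment. For NT-/- mice the fed and fasted ratios were 0.929 ± 0.266 and 1.13 ± 0.214 for Psmb8/Psmb5, 0.383 ± 0.066 and 0.294 ± 0.0699 for Psmb9/Psmb6, and 1.85 ± 0.33 and 1.52 ± 0.24 for Psmb10/Psmb7 (n = 4 and 5; exact permutation p = 0.198, 0.0873, and 0.127).

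**Figure D3:**
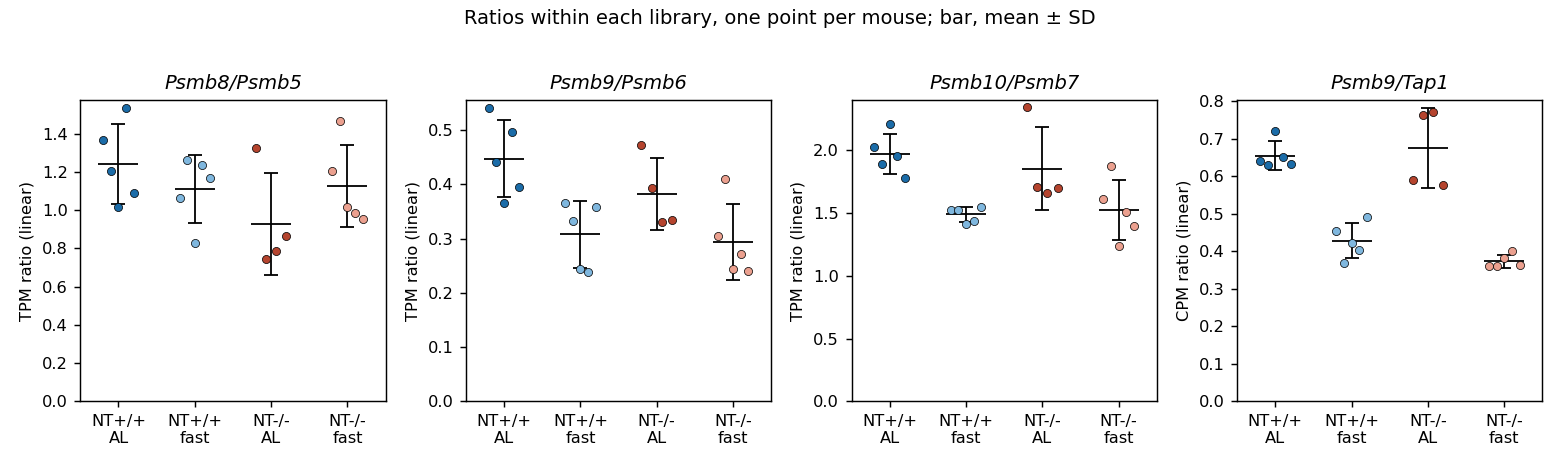
Ratio of each immunosubunit to the constitutive subunit it replaces (TPM, linear axes from 0) and of Psmb9 to Tap1 (CPM), by group. Points are mice and bars are mean ± SD. On the scales shown, the Psmb10/Psmb7 ratio of NT+/+ mice and the Psmb9/Tap1 ratio of both genotypes do not overlap between diets. In TPM the Psmb9/Tap1 ratios of NT+/+ mice overlap.

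Tap1 and Tap2 encode the chains of the transporter and lie beside Psmb9 and Psmb8. Tap1 was at 82.2, 54.6, 52.3, 70.1, and 50.6 CPM in NT+/+ AL mice and at 66.7, 70.5, 62.9, 54.0, and 56.5 CPM in NT+/+ Fast mice. All 5 fasted mice lay within the fed range, and the log2 change was 0.00 (SE, 0.175; adjusted p = 0.993). The NT-/- mice were at 72.0, 39.0, 34.7, and 46.0 CPM when fed and at 80.2, 73.3, 52.5, 56.1, and 63.4 CPM after the fast. Every fasted NT-/- mouse was above the 3 lower fed mice, and fed replicate 1 was above 3 of the 5. The log2 change was 0.44 (SE, 0.188; adjusted p = 0.0958), and Tap1 was called higher with the block (0.51, adjusted p = 0.00972 with the title numbers; 0.50, adjusted p = 0.0122 with the file-name numbers) and without NT-/- AL replicate 1 (0.71, adjusted p = 0.00551).

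Tap2 was at 28.3, 22.6, 22.9, 33.3, and 23.4 CPM in NT+/+ AL mice and at 28.6, 33.8, 30.8, 38.7, and 28.0 CPM in NT+/+ Fast mice. The ranges overlapped, with a log2 change of 0.29 (SE, 0.137; adjusted p = 0.138), which passed without NT+/+ AL replicate 4 (adjusted p = 0.0472). NT-/- crypts had 28.5, 22.4, 20.5, and 20.4 CPM when fed and 34.8, 38.5, 25.6, 26.3, and 31.9 CPM after the fast. Of the fasted mice, 3 were above every fed mouse, and Tap2 rose by 0.45 on the log2 scale (SE, 0.147; adjusted p = 0.0305). The call did not hold without a filter on low counts (adjusted p = 0.0521), nor without any one of NT-/- AL replicates 2, 3, and 4 or NT-/- Fast replicates 1, 2, and 5 (adjusted p from 0.0517 to 0.0964), and it held with either block (adjusted p = 0.0171 and 0.013).

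Tapbp, the tapasin gene, ranged from 148 to 182 CPM in NT+/+ AL and from 131 to 156 CPM in NT+/+ Fast mice, and from 117 to 191 and from 125 to 185 CPM in the NT-/- groups. Its log2 changes were -0.14 (SE, 0.118; adjusted p = 0.437) and 0.15 (SE, 0.126; adjusted p = 0.441). No call was made under any alternative.

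Because Psmb9 and Tap1 start from the shared window printed above, their ratio in each library was set side by side. The pair was chosen after the values were seen, so it is given without a test. The CPM ratio of Psmb9 to Tap1 was 0.639, 0.629, 0.721, 0.65, and 0.633 in NT+/+ AL mice and 0.454, 0.369, 0.421, 0.403, and 0.491 in NT+/+ Fast mice. In NT-/- AL mice it was 0.59, 0.764, 0.771, and 0.576, and in NT-/- Fast mice 0.36, 0.361, 0.382, 0.401, and 0.363. On this CPM scale the fasted mice of each genotype were all below the fed mice of that genotype. This includes NT-/- AL replicate 1, which had the highest levels of both genes in its group. The means of the CPM ratio were 0.654 and 0.428 in NT+/+ and 0.675 and 0.373 in NT-/- mice. In deposited TPM the NT-/- groups stayed separate, but the NT+/+ groups overlapped. There NT+/+ Fast replicate 5 (Psmb9 at 31.83, Tap1 at 22.75 TPM) had a higher ratio than NT+/+ AL replicate 4 (49.71 and 35.67 TPM).

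B2m, the light chain, was at 417, 394, 402, 439, and 356 CPM in NT+/+ AL mice and at 335, 349, 320, 295, and 343 CPM in NT+/+ Fast mice. These groups did not overlap, yet the log2 change of -0.29 (SE, 0.116) had an adjusted p of 0.0818, and it passed in a fit of these 2 groups alone (adjusted p = 0.0222). With Psmb9, Psmb10, and Irf1, it makes 4 of the 9 genes whose fasted NT+/+ mice were all below the fed ones, against 6.97% of all genes tested (7.63% were all above). None of the 9 was separate in this way in NT-/- mice, against 10.8% lower and 10.5% higher of all genes. NT-/- AL mice were at 448, 305, 293, and 397 CPM and NT-/- Fast mice at 358, 489, 330, 366, and 370 CPM. The ranges overlapped, with 2 of the 4 fed mice below every fasted mouse and 1 fasted mouse above every fed one, and the log2 change was 0.08 (SE, 0.123; adjusted p = 0.677).

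B2m pairs with class I heavy chains. Of 18 heavy chain genes listed, 16 were tested. In NT+/+ mice 2 were called higher (H2-Q6, log2 change 1.06, adjusted p = 0.000529; H2-Q4, 0.39, adjusted p = 0.0235) and 1 lower (H2-T24, -0.59, adjusted p = 0.0264), with a list median of 0.10, where 11.2% of all genes were called higher and 10.4% lower. The last 2 lost their calls under 4 of 19 alternatives each, all of them leaving out 1 mouse. Of the 16, 6 were called higher in NT-/- mice and none lower, with a list median of 0.32, where 12.5% of all genes were called higher. With the blocks 8 and 7 were called higher and 1 lower, and the number higher was 4 with NT+/+ Fast replicate 5 moved to NT-/-, and 3 without NT-/- AL replicate 2 and also without replicate 3. H2-Q6 (1.13, adjusted p = 0.000494), H2-Q4 (0.65, adjusted p = 0.00108), and H2-T23 (0.57, adjusted p = 0.00552), the gene of the nonclassical Qa-1 antigen, kept their calls in that genotype under all 18 alternatives. Some H2 genes are close copies of one another, and RSEM's division of reads between such genes makes their single values uncertain. Which of the genes named here are affected was not measured.

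H2-K1 and H2-D1 encode the classical K and D molecules. H2-K1 was at 352 ± 29.3 and 407 ± 34.1 CPM in NT+/+ AL and Fast mice (SD, n = 5 each), with a log2 change of 0.21 (adjusted p = 0.221). In NT-/- mice it rose by 0.44 (SE, 0.125; adjusted p = 0.0141), from 426, 289, 262, and 332 CPM to 470, 535, 422, 375, and 419 CPM. The fed replicate 1 was above 3 fasted mice, and the call was lost without NT-/- AL replicate 2 (adjusted p = 0.0558) or 3 (0.0651). H2-D1 had log2 changes of 0.10 (adjusted p = 0.613) and 0.36 (adjusted p = 0.045), and the second was lost under 10 of 18 alternatives.

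A list of 10 further genes of the pathway holds chaperones and a trimming enzyme of class I loading (Calr, Canx, Pdia3, Tapbpl, and Erap1), proteasome activators (Psme1, Psme2, Psme3, and Psme4), and the proteasome assembly factor Pomp. Of the 10, 6 were called lower in NT+/+ mice and 3 in NT-/- mice, none higher, with list medians of -0.28 and -0.20. Of all genes tested, 10.4% were called lower in NT+/+ and 12.6% in NT-/- mice. The 6 were Calr, Canx, Pdia3, Erap1, Psme4 (-0.29, adjusted p = 0.0179), and Pomp, and the 3 were Calr, Pdia3, and Erap1. The lectin chaperone Calr fell by 0.44 (adjusted p = 0.0138) and by 0.40 (adjusted p = 0.0277), its partner oxidoreductase Pdia3 by 0.42 (adjusted p = 0.00672) and by 0.35 (adjusted p = 0.0271), and the peptide-trimming protease Erap1 by 0.35 (adjusted p = 0.00882) and by 0.28 (adjusted p = 0.0371). These chaperones also serve other glycoproteins. The NT+/+ calls of these 3 genes held under all 19 alternatives, while the count of 6 became 9 with either block, 4 without a low-count filter, and 3 without NT+/+ Fast replicate 4. The calls of NT-/- mice were lost under 4 (Calr), 6 (Pdia3), and 8 (Erap1) of 18 alternatives. Either block gave 5 calls in this genotype, and none was left without NT-/- AL replicate 1 or 4 or without NT-/- Fast replicate 3 or 4.

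Irf1, the interferon-regulated factor, was at 208, 151, 159, 151, and 134 CPM in NT+/+ AL mice and at 131, 113, 96.4, 105, and 103 CPM in NT+/+ Fast mice. All fasted mice were below the lowest fed mouse. Irf1 fell by 0.55 (SE, 0.136; adjusted p = 0.00652), or by 31.7%. The NT-/- mice had 176, 139, 119, and 123 CPM when fed and 115, 148, 91.7, 105, and 109 CPM after fasting. There 4 of 5 fasted mice were below every fed mouse, and replicate 2 was above 3 of them. The log2 change was -0.30 (SE, 0.143; adjusted p = 0.141), and it passed without that mouse (-0.41, adjusted p = 0.0379).

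Nlrc5 was at 16.4, 14.01, 13.5, 19.5, and 9.57 CPM in NT+/+ AL mice and at 12.98, 19.9, 12.6, 17.1, and 12.4 CPM in NT+/+ Fast mice. The fed and fasted ranges overlapped over most of their width, and the log2 change was 0.04 (SE, 0.209; adjusted p = 0.922). In NT-/- AL mice replicate 1 was at 16.4 CPM and the others at 7.90, 8.76, and 8.31 CPM. NT-/- Fast mice were at 15.1, 14.5, 11.9, 13.5, and 10.2 CPM, all between these. The log2 change was 0.32 (SE, 0.226; adjusted p = 0.335), and without NT-/- AL replicate 1 it was 0.64 and was called (adjusted p = 0.0325).

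The DNA-binding factors that Nlrc5 works through fell in part. Of 7 genes of the RFX, NF-Y, and CREB factors, 3 were called lower in NT+/+ and 2 in NT-/- mice, none higher, with medians of -0.23 and -0.26 (4 lower in NT+/+ mice with either block, and 3 in NT-/- mice with that of the title numbers). Among all genes tested, 10.4% and 12.6% were called lower in NT+/+ and NT-/- mice. Creb1 fell by 0.62 (adjusted p = 0.000585) and by 0.60 (adjusted p = 0.00107), and Nfya, an NF-Y subunit, by 0.59 (adjusted p = 0.0127) and by 0.67 (adjusted p = 0.00735). Both genes kept these calls under every alternative run. Each has many targets outside the class I pathway.

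Of 10 tested genes of interferon gamma signaling, 1 was called higher and 3 lower in NT+/+ mice, and 3 higher and 3 lower in NT-/- mice, with medians of -0.09 and 0.14. Without NT-/- AL replicate 1 the NT-/- counts were 2 higher and 1 lower. Over all genes tested, 11.2% were called higher and 10.4% lower in NT+/+ mice, and 12.5% and 12.6% in NT-/- mice. The receptor gene Ifngr1 rose in both (0.25, adjusted p = 0.0208, lost under 3 of 19 alternatives; 0.42, adjusted p = 0.00074), and the phosphatase gene Ptpn2 fell in both (by 0.35, adjusted p = 0.00153; by 0.34, adjusted p = 0.00223). Ifng itself had at most 4 counts in any mouse and 0 in 9 of 19, and it was not tested.

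Of the interferon gamma target genes outside the class I pathway, a part was lower in NT+/+ mice. Against 10.4% of all genes called lower, 4 of the 11 tested were called lower and none higher, with a median of -0.72. They were Gbp6, which encodes a guanylate-binding protein (-1.35, adjusted p = 0.00116), and the immunity-related GTPase genes Tgtp1 (-2.28, adjusted p = 0.00465), Irgm1 (-0.72, adjusted p = 0.0313), and Iigp1 (-2.38, adjusted p = 0.0316). Iigp1 was at 0.365 ± 0.206 CPM after the fast and 1.89 ± 2.19 CPM before, so its change rests on few counts. Irgm1 and Iigp1 lost their calls under 6 alternatives each, 5 of which left out 1 mouse, and without NT+/+ AL replicate 1 their log2 changes were -0.41 (adjusted p = 0.132) and -1.36 (adjusted p = 0.191). The summed level of the list was 89.2 to 209 CPM in NT+/+ AL mice, with a median of 96.7 CPM, and 60.6 to 86.0 CPM in NT+/+ Fast mice. The count of 4 became 7 with the block of the title numbers, 6 with that of the file names, and 2 with the mouse of conflicting labels moved to NT-/- or without NT+/+ AL replicate 1 or any one of NT+/+ Fast replicates 2 to 5. None of the 11 was called in NT-/- mice by edgeR or DESeq2 (1 at an unadjusted p under 0.05), with a median of -0.17, and 1 was called in each direction with either block. Of 10 genes better known as targets of type I interferon, Mx1 was called lower in NT+/+ mice (-1.54, adjusted p = 0.000558) and none in NT-/- mice (1 at an unadjusted p under 0.05, 0 with DESeq2, 1 lower with the file-name block). This 1 of 10 in NT+/+ mice is near the 10.4% of all genes tested that were called lower.

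**Figure D4:**
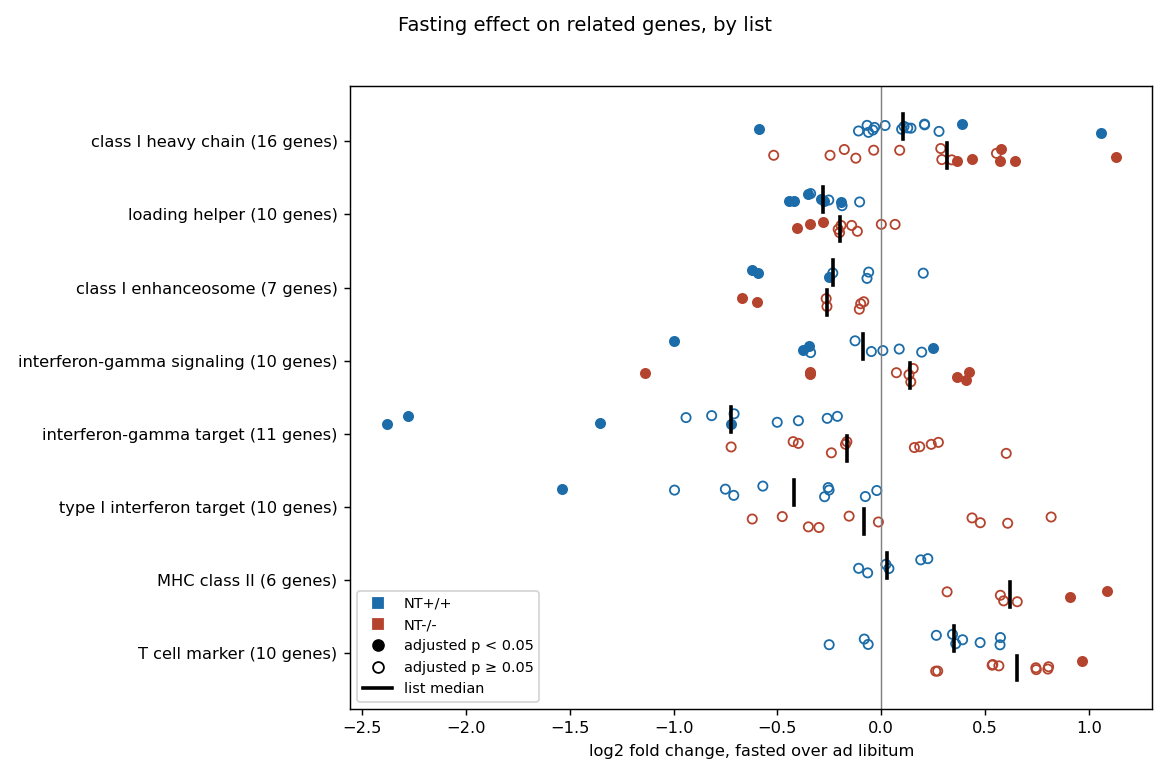
Log2 fold change, fasted over ad libitum, of the tested genes of 8 lists in NT+/+ (blue) and NT-/- (red) mice; filled points have an adjusted p under 0.05 and black bars are list medians. The median of the interferon gamma targets is -0.72 in NT+/+ mice, and that of the class I heavy chains is 0.32 in NT-/- mice.

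Markers of other cells were measured beside these changes. The sum of 10 T cell markers was 84.2 to 203 CPM in NT+/+ AL, 78.9 to 289 CPM in NT+/+ Fast, 99.2 to 177 CPM in NT-/- AL, and 165 to 269 CPM in NT-/- Fast mice. None of the 10 was called in NT+/+ mice by edgeR or DESeq2 (0 at an unadjusted p under 0.05), and their median log2 change was 0.35. In NT-/- mice all 10 had log2 changes above 0, with a median of 0.66. Of the 10, 1 was called higher, the granzyme gene Gzma (0.97, adjusted p = 0.0356), where 12.5% of all genes tested were called higher. The number of T cell markers called was 5 in a fit of these 2 groups alone, 0 with either block, and 0 in 5 of the 9 fits that left out 1 mouse. Of 6 MHC class II genes, which crypt epithelium and antigen-presenting cells both express, 2 were called higher in NT-/- mice (H2-Aa, 1.09, adjusted p = 0.00815; H2-DMb1, 0.91, adjusted p = 0.00718) and none in NT+/+ mice (0 at an unadjusted p under 0.05, 0 with DESeq2). With either block 5 of the 6 were called in NT-/- mice, and without NT-/- AL replicate 1 all 6. Their summed level was 377 to 1075 CPM in NT-/- AL and 685 to 1407 CPM in NT-/- Fast mice, and 836 to 1314 CPM over all NT+/+ mice.

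Villus markers (Alpi, Apoa4, Sis, and Krt20) summed to 2290 to 4363 and 3534 to 6896 CPM in NT+/+ AL and Fast mice, and to 3223 to 5121 and 6639 to 9376 CPM in NT-/- mice. Of the 4, 2 were called higher in NT+/+ and 3 in NT-/- mice, against 11.2% and 12.5% of all genes tested. Of the 4 crypt markers, the proliferation marker Mki67 fell by 0.46 (adjusted p = 0.000866) and by 0.59 (adjusted p = 0.000119), and the stem cell marker Olfm4 by 0.63 (adjusted p = 0.0322, lost under 6 of 19 alternatives) and by 0.92 (adjusted p = 0.00409). The other 2 were not called, Lgr5 at 0.29 and -0.02 and Lyz1 at 0.13 and -0.01. Myeloid markers summed to 12.5 to 31.7 CPM over all mice. Of the 3 tested, Itgam was called lower in both genotypes and the other 2 were not called in either. Their median log2 changes were -0.03 in NT+/+ and -0.11 in NT-/- mice, where 10.4% and 12.6% of all genes were called lower. Stromal markers summed to 7.003 to 13.8 CPM (none called, or 1 lower in NT-/- mice with either block), and B and plasma cell markers to 2.27 to 20.2 CPM. All 4 B and plasma cell markers had log2 changes below 0 in both genotypes, with medians of -0.48 in NT+/+ and -0.65 in NT-/- mice. None of the 4 was called, or at most 1 lower in NT-/- mice under an alternative. Adgre1 and Pdgfra, defining markers of macrophages and fibroblasts, had at most 7 and 5 counts in a mouse and were at 0 in 4 and 5 mice. The part of these cell types in the changes of the 9 genes was not tested.

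No member of the set was called between genotypes by edgeR or DESeq2, at either diet. In ad libitum–fed mice all 9 log2 differences, NT-/- over NT+/+, were below 0, from -0.12 for Tapbp to -0.48 for Nlrc5, but every adjusted p was 1, and 2 of the 9 had an unadjusted p under 0.05, against 1.67% of all genes tested. Without NT-/- AL replicate 1 they were from -0.27 (Tapbp) to -0.81 (Nlrc5), with Psmb8 at -0.73 in place of -0.42 and Tap1 at -0.64 in place of -0.37, and every adjusted p was still 1. Of all genes, 0.00559% were called, which is 1 gene, Nts. After fasting the differences were from -0.20 for Nlrc5 to 0.22 for B2m, with a smallest adjusted p of 0.602, and 0 of the 9 had an unadjusted p under 0.05, against 9.14% of all genes. Again 0.00559% of genes, Nts alone, were called.

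The genotype difference in the fasting effect was above 0 for all 9 genes, from 0.12 for Psmb10 to 0.43 for Tap1, which means that the fasted NT-/- mice lay less far below, or farther above, their fed group. None was called by edgeR (every adjusted p = 1), 1 of the 9 had an unadjusted p under 0.05 (B2m, 0.37; SE, 0.169), and 0 genes of the whole table were called by edgeR or DESeq2, with 2.71% at an unadjusted p under 0.05. The genes tend to move together from mouse to mouse and the comparisons share fed groups, so 9 of 9 signs are not 9 separate observations. Without NT-/- AL replicate 1 the differences were from 0.25 (Psmb10) to 0.71 (Psmb8), with Tap1 at 0.70 and Nlrc5 at 0.61, and no gene was called either.

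That mouse was the highest of its group for all 9 genes, and it was also the most deeply sequenced library. In the other groups the extremes were less concentrated: NT+/+ AL replicate 1 was highest for 6 genes, and NT-/- Fast replicate 3 was lowest for 8. Over the 19 mice the mean of the 9 standardized log2 levels correlated with each gene at a Pearson r of 0.44 (Tap2) to 0.96 (Psmb8), which describes how far each gene follows the set it is part of. Of the genes outside the set, those with the highest r with this mean were Irgm2 (0.91), Igtp (0.89), Gbp2 (0.82), Psme2 (0.81), Tapbpl (0.80), Ifi47 (0.78), Gm12250 (0.77), and Iigp1 (0.77). The points share libraries and diets, and the values are given as a description. The annotations of Irgm2 and Igtp overlap on the same strand of chromosome 11, so their counts may not be separate measurements. Irgm2, Igtp, Ifi47, and Iigp1 encode immunity-related GTPases, Gbp2 a guanylate-binding protein, Psme2 a subunit of the PA28 proteasome activator, and Tapbpl the tapasin-related protein of class I loading.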

How the data were processed

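RNA from the crypts of 19 mice was sequenced by the authors as ribosomal RNA-depleted, single-end libraries, trimmed with Trimmomatic 0.39 and mapped with RSEM to Ensembl GRCm38 transcripts (release 100). For each gene the authors deposited RSEM's expected count, which divides ambiguous reads between genes, its TPM, and an effective length in bases. The strand setting is not given in the sources used here.

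Expected counts were rounded and fitted with edgeR 4.0.16 in R 4.3.3 (TMM, filterByExpr, quasi-likelihood test, 4 groups, no covariate, 15 residual degrees of freedom) over 17875 of 55487 genes, and the script was tested on simulated data. Total counts per mouse were 9059418 to 35068669, which sets the counting error. Groups came from the titles. The members and gene lists were chosen with earlier results of these data known. Named are the 9 genes, up to 4 called genes with the smallest p per list and comparison, Ifng, Psmb5, Psmb6, Psmb7, H2-K1, H2-D1, Nts, and the 8 genes most correlated with the set. Some called list genes are counted without values, and 1 gene of the interferon gamma signaling list is not reported here and is left out of its counts. Ratios were compared with two-sided exact permutation tests.

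Neither the labels nor the methods say what the replicate numbers mark. Deviations of same-numbered mice correlated with a mean r of 0.27 in the NT+/+ fasting comparison (5 of 5 pairs over 0.1) and 0.13 in the NT-/- one (2 of 4), or 0.23 (4 of 4) with the numbers in the file names, so the block is given where it changes the call of a member or the count of a list. Other alternatives were no or a stricter filter (10 counts in every mouse), upper quartile scaling, DESeq2 1.42.0, sex in the model, NT+/+ Fast replicate 5 moved to NT-/-, only the groups compared, and each mouse left out. With sex in the model, the 1 mouse with no sex label was not used.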

Additional observations from a re-analysis of the deposited data

Results flagged for a closer look

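Of 52 sets of values, 5 (each a gene or ratio within a group) held 1 mouse whose gap to the next was a large share of the group's range by Dixon's test, which flags about 5% of sets by chance. NT-/- AL replicate 1 stood apart for Psmb8 (82.4 CPM against 40.8 to 44.8 CPM in the others), Nlrc5 (16.4 against 7.90 to 8.76 CPM), and the Psmb10/Psmb7 ratio (2.34 against 1.65 to 1.71). NT-/- Fast replicate 2 stood apart for B2m (489 against 330 to 370 CPM), and NT+/+ AL replicate 3 for the Psmb9/Tap1 ratio (0.721 against 0.629 to 0.65).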

How the results depend on the processing

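Over 909 combinations of a member, a comparison, and an alternative, 851 kept their direction and their side of the threshold, 11 lost a call, 12 gained one, and 35 turned sign, none of them while called. Psmb9, Psmb10, and Irf1 stayed called lower in NT+/+ mice under every alternative. For NT-/- mice 2 members were called, 1 without a low-count filter, 4 with either replicate block, and 0 to 3 when single mice were left out. Blocks changed no other member's call than those given above. Called genes of the whole table between genotypes were 0 in fed and 0 in fasted mice with the stricter filter or with the mouse of disagreeing labels as NT-/-, 3 and 101 with DESeq2, and 1 to 4 in fasted mice with a mouse left out. CPM over effective length differs from the TPM ratio only by rounding. On it the NT+/+ fasting differences of Psmb9/Psmb6 (log2 ratio -0.55) and Psmb10/Psmb7 (-0.40) passed. In TPM with a mouse left out they were -0.62 to -0.47 and -0.44 to -0.36. There both passed only without NT+/+ AL replicate 3. Paired by number, 5 pairs cannot reach an exact p under 0.05.

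Signs turned near 0. With mice left out, log2 fasting changes in NT+/+ mice were -0.0621 to 0.126 (Tap1), -0.0832 to 0.163 (Nlrc5), and -0.0101 to 0.076 (Psmb6), and in NT-/- mice -0.0769 to 0.336 (Psmb8), -0.0203 to 0.205 (B2m), and -0.0397 to 0.0434 (Psmb6). Genotype differences after fasting were -0.114 to 0.0815 (Psmb8), -0.125 to 0.0452 (Psmb10), -0.0206 to 0.137 (Tap1), -0.107 to 0.0505 (Tap2), and -0.0622 to 0.122 (Irf1), and for the log2 ratios -0.195 to 0.000696 (Psmb9/Psmb6), -0.0858 to 0.0709 (Psmb8/Psmb5), and -0.0568 to 0.0938 (Psmb10/Psmb7). Without a filter Tap1 was at -0.0065 in NT+/+ and Psmb6 at -0.0171 in NT-/- mice, where Psmb6 was also at -0.0133 with the file-name block and -0.0217 with sex. The fit with sex also left out the 1 mouse with no sex label. After fasting, the genotype difference of Psmb8 was 0.00072 with DESeq2 and, with the mouse regrouped, those of Psmb8, Psmb10, and Psmb9/Psmb6 were 0.0513, 0.0153, and 0.0452. The cause was not tested.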
